A study of Mus musculus with 4 samples.

Results

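Amino acid transporter genes were examined in basal and luminal cells of the developing mouse prostate. The family was taken as every protein-coding gene whose GRCm38 symbol begins with Slc1a, Slc6a, Slc7a, Slc36a, Slc38a or Slc43a and a digit, together with the heavy chains Slc3a1 and Slc3a2. This rule uses names only and gave 64 of the 49671 genes in the table. One of the 64, Slc7a6os, matches the pattern by name but lies beside Slc7a6 on the opposite strand and is no transporter. No read was counted in any library for 12 of the 64, and 52 had at least 1 read in at least 1 library.

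RNA-seq had been performed on epithelial cells from the tips of the ventral lobe of CD-1 mice at postnatal days 10 to 13, with no treatment. Cells positive for EpCAM and negative for blood, endothelial and stromal surface markers were separated by FACS into basal cells (CD49f high), described by the study as multipotent, and luminal cells (CD49f low), described as derived from them. Each cell type was represented by 2 libraries, which carry the labels basal 1 and 3 and luminal 3 and 2 and are called replicates here, and the tissue of several mice had been pooled for sorting. Values are given below with basal replicate 1 before 3 and luminal replicate 3 before 2. The labels do not say whether the libraries of a group came from separate animals, so p-values measure the spread between these samples, which may be technical.

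Amino acid transporters are membrane proteins that move amino acids and related small molecules into, out of and within cells. Sodium-coupled carriers such as those of Slc38 concentrate neutral amino acids in the cell, exchangers such as Slc1a5 and Slc7a5 trade one amino acid for another, and the light chains of Slc7 reach the membrane bound to a heavy chain of Slc3. The supply of glutamine, leucine and arginine set by these carriers feeds protein synthesis and is sensed at the lysosome by the mTORC1 pathway, and several carriers are induced when amino acids run short.

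Recovered reads ranged from 643267 to 3194307 per library, and both luminal libraries were shallower than both basal libraries, so depth and cell type cannot be told apart. The keratin Krt5, a basal marker, was at 15824 to 18481 normalized counts in basal cells and 77 to 93 in luminal cells, while the luminal keratin Krt8 was at 3012 to 4287 and 8320 to 13302. Fibroblast markers were above 0 in all 4 libraries for 7 of 7 genes, and their summed level was 100654 to 207389 in basal and 71311 to 197198 in luminal libraries, highest in basal replicate 3 and luminal replicate 2. Among them Dcn stood apart, at 45830 and 47724 normalized counts in basal replicates 1 and 3 and at 5770 and 20256 in luminal replicates 3 and 2 (edgeR adjusted p = 0.0397). Luminal replicate 3 had the lowest summed level of smooth muscle markers (6 of 6 above 0 in all libraries), at 9984 against 30687 to 61015 in the others, and of endothelial markers (4 of 5), at 445 against 1495 to 1572. Their part in the values of the transporters was not tested. In bulk samples such as these, fewer cells of a type and less RNA per cell cannot be told apart.

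The share of all reads held by the family was higher in both basal libraries than in both luminal ones. The family held 8991 reads in basal replicate 1, or 0.281% of all reads (95% Wilson confidence interval 0.276 to 0.287), and 10075 in basal replicate 3, or 0.327% (0.321 to 0.334). In luminal replicate 3 it held 1815 reads, or 0.175% (0.167 to 0.183), and in luminal replicate 2 it held 1152, or 0.179% (0.169 to 0.190). No two-sided exact permutation test of 2 libraries against 2 can go below p = 0.333. Intervals cover counting error only. The most abundant member, Slc38a2, held 39.3% and 51.3% of the family's reads in basal replicates 1 and 3 and 25.5% and 30.9% in luminal replicates 3 and 2. Without Slc38a2 the share of all reads was 0.171% and 0.159% in basal and 0.130% and 0.124% in luminal cells.

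The makeup of the libraries moved with the cell type as well. Nuclear protein-coding genes held 76.0% and 74.7% of reads in basal and 57.3% and 64.2% in luminal cells, and mitochondrial genes held 2.96% and 4.41% against 8.64% and 6.32%. In a calculation chosen after seeing the data, the family took 0.370% and 0.438% of nuclear protein-coding reads in basal and 0.306% and 0.279% in luminal cells. Without Slc38a2 it took 0.225% and 0.213% in basal and 0.228% and 0.193% in luminal cells, and the cell types overlapped.

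**Figure D1:**
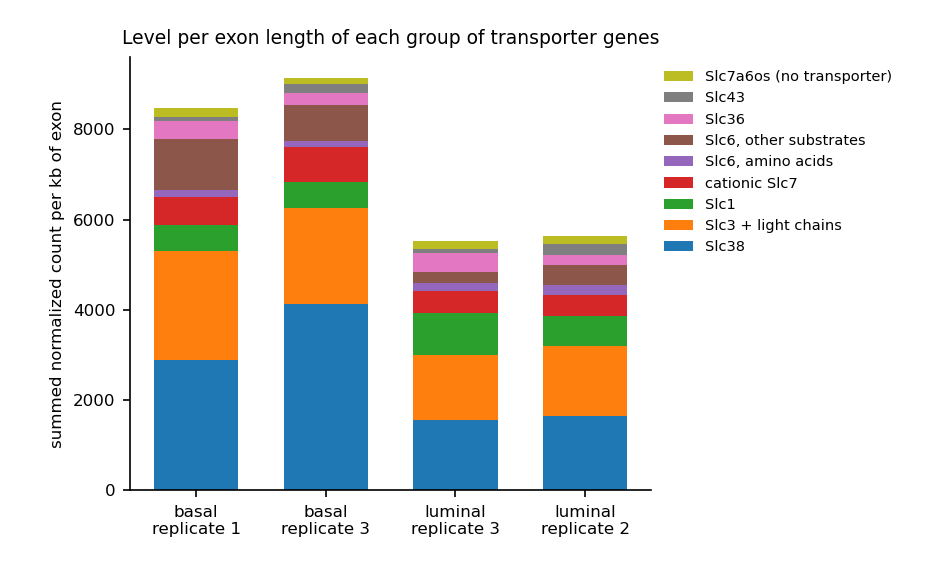
Stacked bars give the summed normalized count per kilobase of exon for each group of genes in the 4 libraries, with each gene's value divided by its exon length before summing. The Slc38 and the Slc3 with light chain groups form the largest parts of every bar, and the whole bars reach 8462 and 9146 in basal cells and 5513 and 5644 in luminal cells.

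Genes were compared after a filter on low values that took the study's limits, 10 for each library and 20 for the average of a group. How the groups combine is not given in the sources used here, and a gene was kept where at least 1 group met both limits. The filter kept 39 of the 64 members, and 32 of them passed it in both groups. By the ratio of group averages, 13 members were at least 2-fold higher in basal cells, against 16.3% of all genes kept, and 6 were at least 2-fold higher in luminal cells, against 18.3%. Since a gene can pass through the group where it is high alone, the same was counted over the 32 members that passed in both groups. Of those, 8 were higher in basal cells, where 12.0% of such genes were, and 5 were higher in luminal cells, where 12.4% were. Both basal libraries lay above both luminal libraries for 19 of the 39 members, against 27.3% of all genes kept, and the reverse held for 5, against 23.6%. The 19 include Slc6a20a, Slc6a2 and Slc6a4, and the 5 include Slc6a14, which passed the filter only through the group where they are high. This count was not repeated over the 32 members.

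The median log2 fold change, luminal minus basal, of the 39 members was -0.50, and that of the 18737 genes kept was -0.10. Where each gene with no more than 3 reads in any library of a group was given the bound that 3 reads allow, these medians became -0.14 and 0. Scaling to nuclear protein-coding genes, which held a smaller share of reads in luminal cells, raised the median of all genes to 0.21 and that of the members to -0.20.

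No member passed limma, a linear model fitted to log2 of the normalized count plus 1, at a Benjamini-Hochberg adjusted p under 0.05, which 0.694% of all genes did. The lowest adjusted p among members was 0.0688. At an unadjusted p under 0.05 there were 13 members, 9 higher in basal and 4 higher in luminal cells, against 18.5% of all genes. Among the 13, Slc6a20a, Slc6a2, Slc6a4 and Slc6a14 had passed the filter only through the group where they are high. The edgeR quasi-likelihood test on recovered whole reads called 7 members, 4 higher in basal cells (2.70% of all genes) and 3 higher in luminal cells (2.37%), and DESeq2 called 6, against 5.70% of the 14379 genes to which it gave an adjusted p. The 4 were Slc6a6, Slc38a2, Slc1a4 and Slc7a6, and the 3 were Slc38a1, Slc7a4 and Slc6a14. In fits that leave out 1 library, given below for these genes, a group of 1 library takes its spread from the other group, and the edgeR calls over all genes changed as well, from 444 in luminal and 506 in basal cells to 117 and 164 without luminal replicate 3. The ratio of averages of each of these 7 genes stayed at least 2-fold in the same direction in every such fit, except that Slc6a14 gave no ratio without basal replicate 3, where no basal read was left.

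**Figure D2:**
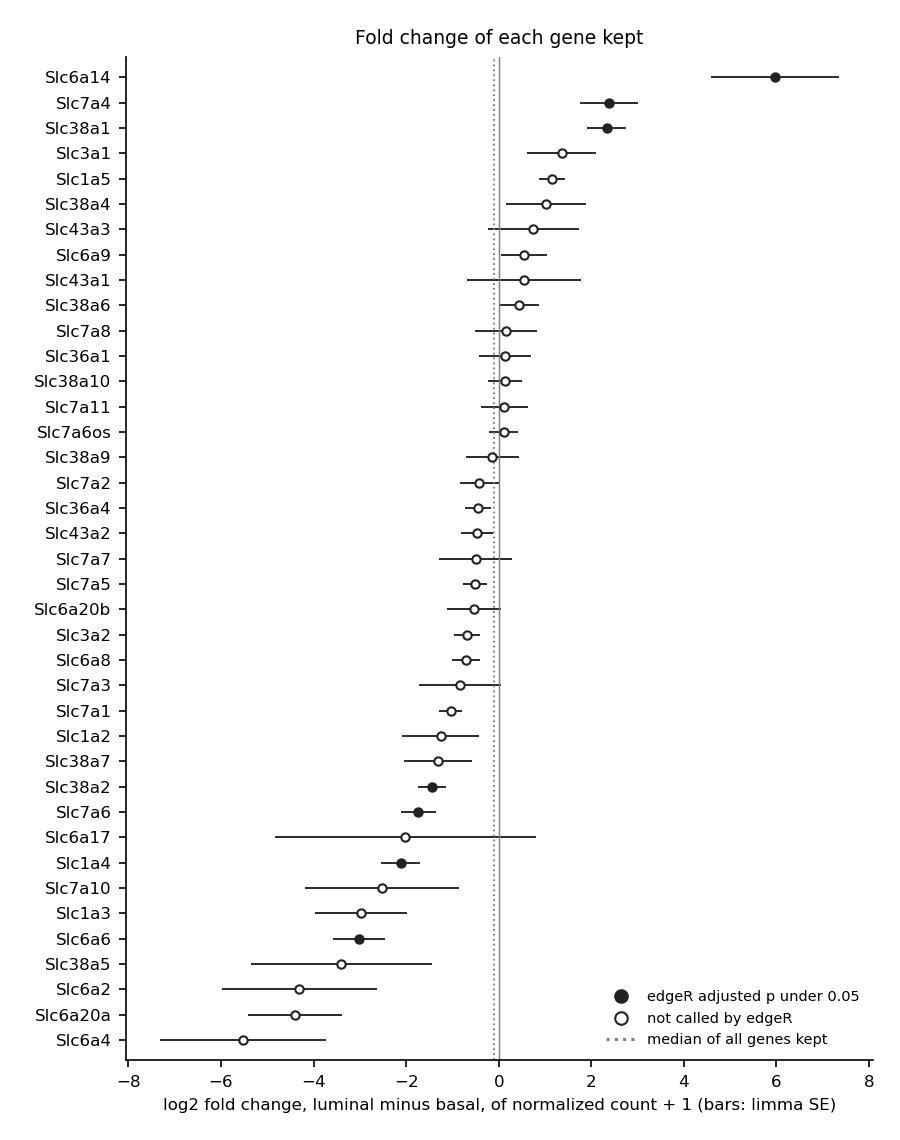
Points give the log2 fold change of each of the 39 members kept, luminal minus basal, on normalized count plus 1, with bars of 1 standard error from limma, and filled points had an edgeR adjusted p under 0.05. Filled points run from -3.02 for Slc6a6 to 5.97 for Slc6a14, which rests on 1 basal read, the open points of Slc6a4, Slc6a20a, Slc6a2 and Slc38a5 lie further toward basal cells, and the dotted line at -0.10 is the median of all genes kept.

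The Slc38 family holds sodium-coupled neutral amino acid carriers, of which edgeR called Slc38a2 and Slc38a1, in opposite directions, and no other. Slc38a2 (SNAT2, chromosome 15, 96687392 to 96699730, GRCm38) carries alanine, serine, glutamine and other small neutral amino acids and was the most abundant member per exon length in both cell types. It was at 22107 and 33596 normalized counts in basal replicates 1 and 3, and at 8965 and 11094 in luminal replicates 3 and 2. Both basal libraries were above both luminal ones. The log2 fold change was -1.45 ± 0.30 (limma standard error, n = 2 libraries per group), with a limma adjusted p of 0.0705 and an edgeR adjusted p of 0.0237. The edgeR call was lost without basal replicate 3 (adjusted p = 0.163) and without luminal replicate 3 (adjusted p = 0.150), while the basal average stayed at least 2-fold higher without any 1 library.

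Slc38a1 (SNAT1, chromosome 15, 96571418 to 96642913) shares these substrates and is the neighbour of Slc38a2, 44.5 kb away with no coding gene between them. Basal replicates 1 and 3 had 401 and 786 normalized counts of it, and luminal replicates 3 and 2 had 3563 and 2244. The groups did not overlap, and the direction was opposite to that of Slc38a2. Its log2 fold change was 2.33 ± 0.43, with adjusted p of 0.0688 by limma and 0.00679 by edgeR. The edgeR call was lost without luminal replicate 3 (adjusted p = 0.112).

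Because Slc38a1 and Slc38a2 were counted in the same libraries, the share of each within the pair does not depend on how libraries are scaled. Of the reads of both genes, Slc38a1 took 1.78% (95% Wilson confidence interval 1.40 to 2.27) in basal replicate 1 and 2.29% (1.92 to 2.72) in basal replicate 3. In luminal cells it took 28.4% (25.1 to 32.0) of them in replicate 3 and 16.8% (13.6 to 20.7) in replicate 2. Slc38a2 thus remained the larger of the pair in all 4 libraries, and the share of Slc38a1 was higher in both luminal libraries, which also differed from each other by more than their counting intervals. This pair, like those below, was chosen after its values were seen.

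The other Slc38 members were lower, and 8 of the 11 were kept. The third neighbour in the cluster, Slc38a4 (SNAT4), had 44 and 78 normalized counts in basal and 77 and 187 in luminal cells, with a log2 fold change of 1.02 ± 0.87 (limma adjusted p = 0.553). Slc38a7, a lysosomal glutamine exporter, was at 244 and 123 in basal and 77 and 62 in luminal cells, with a log2 fold change of -1.31 ± 0.73 (limma adjusted p = 0.398), and its ratio was under 2-fold without basal replicate 1. Slc38a9, the lysosomal arginine sensor of mTORC1, overlapped between groups at 225 and 390 against 387 and 187, with a log2 fold change of -0.14 ± 0.58. Slc38a6 and Slc38a10 also overlapped between groups, and Slc38a5 rested on 25 basal reads and 1 luminal read, a ratio of 6.67 (95% exact interval 1.09 to 274). Slc38a3, Slc38a8 and Slc38a11 had between 1 and 9 reads over the 4 libraries and did not pass the filter.

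**Figure D3:**
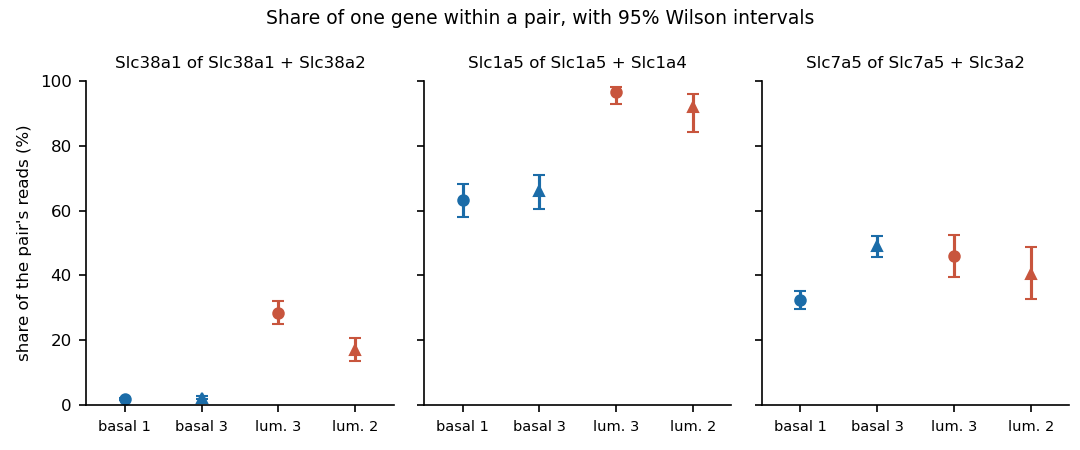
Each panel gives the percent of a pair's reads that came from the first gene, by library, with 95% Wilson intervals and with basal libraries in blue and luminal libraries in red. Slc38a1 stands at 1.78% to 2.29% of its pair in basal and 16.8% to 28.4% in luminal cells, Slc1a5 at 63.3% to 65.9% and 92.0% to 96.5%, and the Slc7a5 shares overlap.

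In the Slc1 family, the neutral amino acid exchangers Slc1a4 and Slc1a5 stood in opposite orders, and only Slc1a4 was called by edgeR. Slc1a5 (ASCT2, chromosome 7, 16781340 to 16798274), which takes up glutamine in exchange for other neutral amino acids, was at 1359 and 1384 normalized counts in basal replicates 1 and 3 and at 3718 and 2493 in luminal replicates 3 and 2. The luminal libraries were both higher. The log2 fold change of 1.15 ± 0.28 had adjusted p of 0.0966 by limma and 0.0532 by edgeR, and without luminal replicate 3 the log2 ratio of averages was 0.86, under 2-fold. Per exon length, Slc1a5 ranked below Slc38a2, Slc3a2, Slc7a5, Slc7a1, Slc6a6 and Slc6a8 in basal cells and below Slc38a2 alone in luminal cells.

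Slc1a4 (ASCT1, chromosome 11, 20302180 to 20332713), an exchanger of alanine, serine and cysteine, was at 789 and 715 normalized counts in basal and at 136 and 218 in luminal cells. These groups did not overlap either, with a log2 fold change of -2.12 ± 0.42 and adjusted p of 0.0705 by limma and 0.0237 by edgeR. The edgeR call was lost without basal replicate 1 (adjusted p = 0.0636) and on omitting luminal replicate 3 (adjusted p = 0.183). The luminal values rest on 7 reads in each library. Of the reads of the pair, Slc1a5 took 63.3% (58.0 to 68.2) and 65.9% (60.6 to 70.9) in basal replicates 1 and 3, and 96.5% (92.9 to 98.3) and 92.0% (84.3 to 96.0) in luminal replicates 3 and 2.

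Slc1a3 and Slc1a2, glutamate carriers best known from glia, were the remaining Slc1 genes kept. Slc1a3 was at 382 and 409 normalized counts in basal and at 19 and 125 in luminal cells, the latter from 5 reads together, and its log2 fold change was -2.98 ± 1.00 (limma adjusted p = 0.206, edgeR adjusted p = 0.0741). Slc1a2 had 94 and 292 in basal and 77 and 62 in luminal cells, with -1.25 ± 0.83 (limma adjusted p = 0.470), and a log2 ratio of averages of -0.44 without basal replicate 3. Glia and neuron markers were also higher in basal libraries, with a summed level of 581 to 1032 in basal and 124 to 271 in luminal cells for 5 genes. Of these, Sox10 was at 81 and 19 in basal and at 0 and 31 in luminal cells. Their part in the Slc1a2 and Slc1a3 values was not tested. Slc1a1, Slc1a6 and Slc1a7 had at most 4 reads each over the 4 libraries.

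The Slc6 genes whose products carry neurotransmitters, osmolytes or creatine included Slc6a6, the member with the lowest edgeR adjusted p. Slc6a6 (TauT, chromosome 6, 91684053 to 91759066) imports taurine, a sulfur-containing osmolyte. It was at 4822 and 2910 normalized counts in basal replicates 1 and 3, and at 271 and 779 in luminal replicates 3 and 2. The basal average was 7.36-fold higher and the groups were far apart, although the luminal libraries differed from each other as well. The log2 fold change was -3.02 ± 0.56, with adjusted p of 0.0688 by limma and 0.00258 by edgeR, and the edgeR adjusted p stayed at or below 0.0389 without any 1 library.

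Slc6a8, the creatine carrier, was abundant in both cell types, at 2355 and 2105 normalized counts in basal and 1084 and 1714 in luminal cells, with a log2 fold change of -0.71 ± 0.30 (limma adjusted p = 0.296). Slc6a4, the serotonin carrier, was at 369 and 182 in basal cells and at 0 and 31 in luminal cells. That is 87 basal reads and 1 luminal read, a ratio of 23.2 (95% exact interval 4.06 to 928), with adjusted p of 0.194 by limma and 0.0521 by edgeR. Slc6a2, the noradrenaline carrier, was lower in level, with 132 and 58 in basal and 19 and 0 in luminal cells, from 30 reads and 1 read (ratio 8.01, 1.33 to 327). Both monoamine carriers are known from neurons, and they were highest in basal replicate 1, whereas the summed glia and neuron markers were highest in basal replicate 3. The dopamine carrier Slc6a3, the betaine carrier Slc6a12 and the genes Slc6a13 and Slc6a16 were at 0 in all libraries, and Slc6a11 and Slc6a21 had 1 read each. A count of 0 allows up to 18.8 and 19.5 normalized counts in basal replicates 1 and 3, and up to 58.1 and 93.5 in luminal replicates 3 and 2.

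Among the Slc6 genes for amino acids, Slc6a14 stood apart. Its product, ATB0,+, carries neutral and cationic amino acids across the apical membrane of epithelia. Slc6a14 (chromosome X, 21714896 to 21742355) was at 0 and 6 normalized counts in basal and at 290 and 93 in luminal cells, from 1 basal read and 18 luminal reads. The ratio was 67.4 (95% exact interval 10.6 to 2809), the limma adjusted p 0.0877 and the edgeR adjusted p 0.0237, and the edgeR call was lost without luminal replicate 3 (adjusted p = 0.346). Its average over the 4 libraries was 97.2, just under the average of 100 set for naming, so it was chosen after its values were seen.

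Slc6a9, a glycine carrier, had the highest level per exon length of this group over the 4 libraries and in luminal cells, and Slc6a20b was slightly above it in basal cells. Slc6a9 was at 413 and 221 normalized counts in basal and 349 and 561 in luminal cells (log2 fold change 0.55 ± 0.50, limma adjusted p = 0.578), and the cell types overlapped. The imino acid carriers Slc6a20a and Slc6a20b are neighbours 2.20 kb apart. Their sequences were not compared and whether reads were split between them was not tested, so their values are uncertain. Slc6a20b was at 589 and 474 in basal and at 213 and 623 in luminal cells, and Slc6a20a had 7 reads, all in basal libraries. Slc6a17 was at 31 and 175 in basal and at 0 and 343 in luminal cells, so each group held a low and a high library. Slc6a5, Slc6a7 and Slc6a19 were at 0 in all libraries, and Slc6a15 and Slc6a18 had at most 2 reads each.

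**Figure D4:**
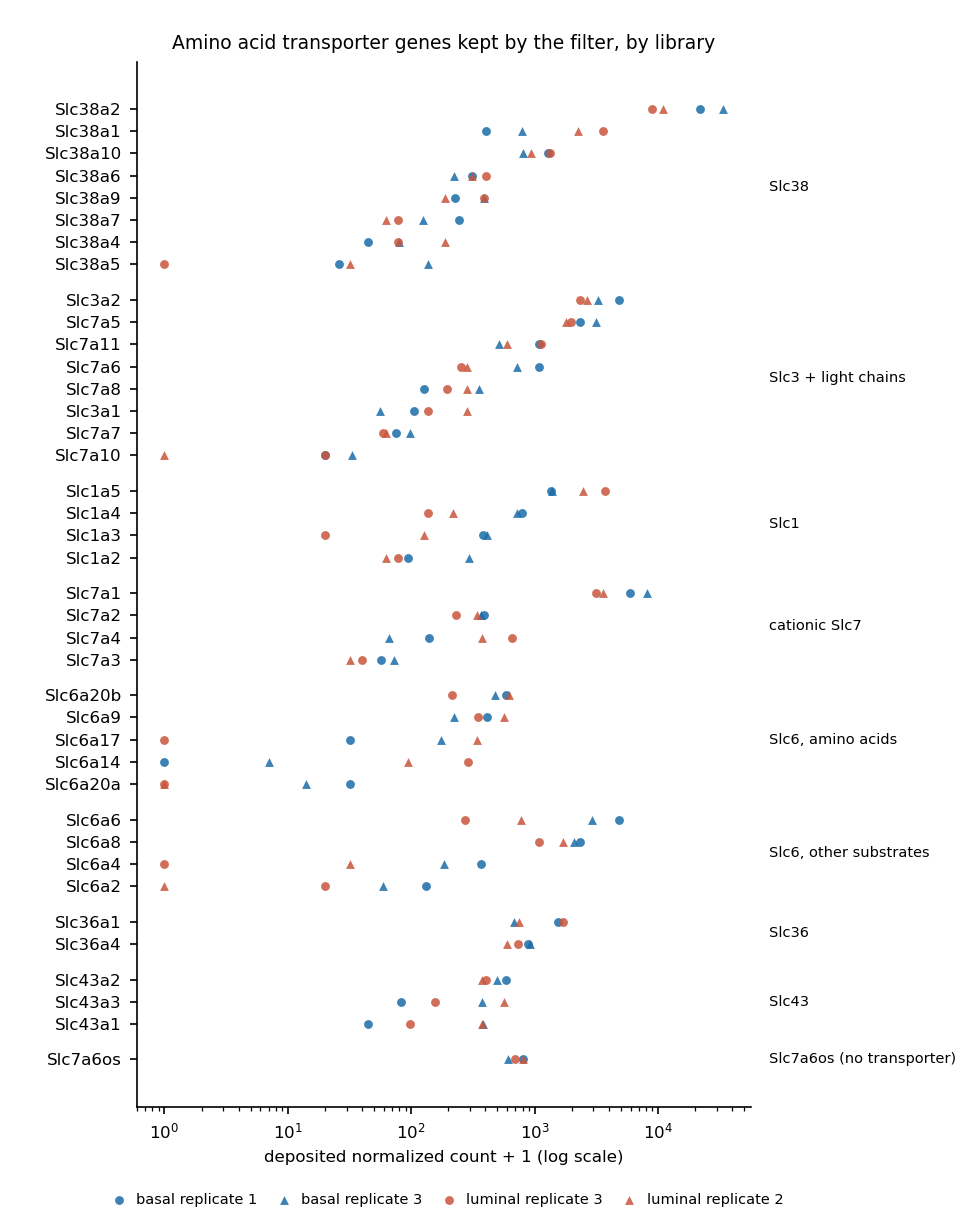
Each row is a member kept by the filter, grouped by family, and points give the deposited normalized count plus 1 in each library on a log scale, with basal libraries in blue and luminal libraries in red. Blue and red points are apart and in opposite order for Slc38a2 and Slc38a1, and for Slc1a4 and Slc1a5, while Slc7a11, Slc38a9 and Slc36a1 overlap.

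The heavy chain Slc3a2 and the light chain Slc7a5 were among the 4 members with the highest level per exon length in each cell type. Slc3a2 (CD98, chromosome 19, 8706882 to 8723369), the chaperone of most Slc7 light chains, was at 4860 and 3280 normalized counts in basal and at 2323 and 2649 in luminal cells. Slc7a5 (LAT1, chromosome 8, 121881150 to 121907694), which exchanges large neutral amino acids such as leucine, was at 2317 and 3144 in basal and at 1975 and 1807 in luminal cells. Both basal libraries were above both luminal libraries for each gene, but the log2 fold changes were -0.69 ± 0.27 for Slc3a2 (limma adjusted p = 0.269, edgeR 0.239) and -0.51 ± 0.25 for Slc7a5 (limma adjusted p = 0.355, edgeR 0.416). Of the reads of the pair, Slc7a5 took 32.3% and 48.9% in basal and 45.9% and 40.6% in luminal cells, and these ranges overlapped. Gm20388, a coding gene of the opposite strand, shares a span of 26545 bases with Slc7a5, so their reads may not be told apart.

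Slc7a6 (y+LAT2, chromosome 8, 106168857 to 106198706), a light chain that exports arginine in exchange for glutamine, was at 1096 and 721 normalized counts in basal and at 252 and 280 in luminal cells. The basal average was 3.42-fold higher, with a log2 fold change of -1.74 ± 0.37 and adjusted p of 0.0743 by limma and 0.0386 by edgeR. That edgeR call was lost without basal replicate 1 (adjusted p = 0.220), without luminal replicate 3 (adjusted p = 0.204) and without luminal replicate 2 (adjusted p = 0.0877), while the log2 ratio of averages stayed between -2.04 and -1.44. Slc7a6os, next to it on the other strand, was at 802 and 604 in basal and 697 and 810 in luminal cells, and whether reads were assigned by strand is not given in the sources used here. Slc7a7 (y+LAT1) and Slc7a8 (LAT2) were at 58 to 97 and at 125 to 351 normalized counts, with log2 fold changes of -0.50 ± 0.79 and 0.15 ± 0.67.

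Slc7a11 (xCT, chromosome 3, 49892526 to 50443614), the light chain that imports cystine for glutathione synthesis in exchange for glutamate, overlapped between the cell types. It was at 1096 and 513 normalized counts in basal replicates 1 and 3, and at 1123 and 592 in luminal replicates 3 and 2. Each group held a high and a low library, with a log2 fold change of 0.12 ± 0.51 (limma adjusted p = 0.920). The heavy chain of the cystine and dibasic amino acid carrier, Slc3a1, was at 104 and 55 in basal and at 136 and 280 in luminal cells, which gave a log2 change of 1.36 ± 0.76 (limma adjusted p = 0.400), and its log2 ratio of averages was 0.77 without luminal replicate 2. Neither basal value of Slc3a1 was a whole multiple of 1 read of its library, and that of replicate 1 lay on the spacing of replicate 3, so its read number and the library its basal values belong to are uncertain. Its partner Slc7a9 had 1 read in all 4 libraries. Slc7a10 had 9 reads, and Slc7a12, Slc7a13 and Slc7a15 were at 0 throughout.

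Several transporter genes are induced in amino acid shortage through a composite element bound by C/EBP and ATF proteins, whose core was searched as TGATGNAA on both strands. RefSeq promoter windows of GRCm38.p6, from 250 bases before to 50 after a gene's start, matched 46 of the 64 members. The core was found in 4 of these 46 genes (8.70%), Slc7a11, Slc1a4, Slc7a7 and Slc6a21, against 4.51% of 27025 genes with a window. Of the 20 genes of the amino acid response list below that had a window, 7 held it. The first of the following stretches holds a pair of matches and the second a match at the start of the gene, in capitals, and the third, of the most abundant member, holds none.
Slc7a11 (chr3:50443614-50443713, minus strand, ending at the base before the start): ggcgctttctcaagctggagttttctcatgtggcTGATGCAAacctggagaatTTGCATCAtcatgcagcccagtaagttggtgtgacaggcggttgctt
Slc1a4 (chr11:20332704-20332803, minus strand, ending 10 bases after the start): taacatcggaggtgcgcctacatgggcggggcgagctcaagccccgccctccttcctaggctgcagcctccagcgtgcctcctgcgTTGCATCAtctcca
Slc38a2 (chr15:96699729-96699828, minus strand, ending at the base before the start): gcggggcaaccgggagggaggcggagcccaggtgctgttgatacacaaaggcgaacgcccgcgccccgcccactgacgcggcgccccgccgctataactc
A match describes the letters of the window and is not evidence of binding. Sequence beyond the windows was not searched, so a window without a match does not show that a gene, Slc38a2 included, lacks the element. Of the 2 members shown with a match, Slc1a4 was higher in both basal libraries and Slc7a11 overlapped between the cell types.

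The cationic amino acid carriers of Slc7 were led by Slc7a1 (CAT1, chromosome 5, 148327410 to 148399904), the main importer of arginine and lysine in many cells. It was at 5987 and 8126 normalized counts in basal and at 3175 and 3615 in luminal cells. The basal average was 2.08-fold higher and the groups did not overlap, with a log2 fold change of -1.04 ± 0.25, a limma adjusted p of 0.0937 and an edgeR adjusted p of 0.0761. It was under 2-fold without basal replicate 3 (log2 ratio -0.82) and without luminal replicate 3 (-0.96). Slc7a4 (chromosome 16, 17572018 to 17583214), whose substrate is not settled, showed the opposite order at a lower level, with 138 and 65 in basal and 658 and 374 in luminal cells. Its log2 fold change was 2.38 ± 0.63, with adjusted p of 0.120 by limma and 0.0376 by edgeR, and the edgeR call was lost on omitting basal replicate 3 (adjusted p = 0.110) or luminal replicate 3 (adjusted p = 0.359). It overlaps P2rx6 on the opposite strand, so reads of the pair may not be told apart. Coding genes of the opposite strand also overlap other members, among them Slc6a9 with Ccdc24 and B4galt2, Slc3a1 with Prepl and Slc7a5 with Gm20388. Slc7a2 (CAT2) was at 388 and 370 in basal and 232 and 343 in luminal cells, which gave a log2 change of -0.42 ± 0.42, and Slc7a3 was at 31 to 71 normalized counts. The lysosomal member Slc7a14 was at 116 in luminal replicate 3 and at 0 elsewhere, and the neuroendocrine marker Chga was at 213 in that library, at 0 in luminal replicate 2 and at 19 and 13 in basal cells. Over the 3 neuroendocrine markers the summed level was 19 to 26 in basal libraries and 484 and 0 in luminal replicates 3 and 2, and their part in the Slc7a14 value was not tested.

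The proton-coupled and sodium-independent carriers did not separate the cell types by 2-fold. Slc36a1 (PAT1), a lysosomal and plasma membrane carrier of small amino acids, was at 1547 and 682 normalized counts in basal replicates 1 and 3 and at 1704 and 748 in luminal replicates 3 and 2, with a log2 fold change of 0.14 ± 0.57. Slc36a4 was at 883 and 922 in basal and 736 and 592 in luminal cells, with -0.45 ± 0.29 (limma adjusted p = 0.455). Slc36a2 was at 0 and Slc36a3 had 1 read. Among the Slc43 genes, Slc43a2 (LAT4) was at 582 and 500 in basal and 407 and 374 in luminal cells, with -0.47 ± 0.34 (limma adjusted p = 0.502). Slc43a1 (LAT3) was at 44 and 383 in basal and at 97 and 374 in luminal cells, and Slc43a3, a purine nucleobase carrier, was at 81 and 377 and at 155 and 561. These 2 neighbours on chromosome 2, 73.0 kb apart, were high in the same library of each group, as were the fibroblast marker Col1a1, at 17210 and 59670 in basal and 22886 and 56436 in luminal cells, and Slc6a17, and the part of fibroblast RNA in these values was not tested.

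Genes that act beside the transporters were described from 5 hand-written lists. The amino acid response list holds 22 targets and factors of ATF4, all kept, of which 8 were at least 2-fold higher in basal and 3 in luminal cells, with a median log2 fold change of -0.35. These were 36.4% and 13.6% of the list, against 16.3% and 18.3% of all genes kept, and the same background applies to the lists that follow. Atf4 itself was at 5730 and 7490 normalized counts in basal and 5054 and 4893 in luminal cells. The stress regulator Nupr1 was at 38 and 331 in basal and at 5499 and 3989 in luminal cells, which gave a log2 change of 5.36 ± 0.99 (limma adjusted p = 0.0688, edgeR adjusted p = 0.00193), and was the only gene of the list called by edgeR. The lipoprotein receptor gene Vldlr had a log2 fold change of -1.50 ± 0.64, and Stc2 and Pycr1 had 2.70 ± 1.47 and 1.28 ± 1.40, none of which passed limma or edgeR.

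Of 15 kept genes for glutamine, glutamate and aspartate enzymes, 3 were at least 2-fold higher in basal (20%) and 2 in luminal cells (13.3%), shares near the background, with a median of -0.34. Oat, which interconverts ornithine and glutamate semialdehyde, was at 9688 and 7288 normalized counts in basal and 1510 and 1870 in luminal cells, and passed limma with a log2 fold change of -2.32 ± 0.26 (adjusted p = 0.0423). The mitochondrial alanine aminotransferase Gpt2 was at 292 and 238 in basal and 910 and 810 in luminal cells, with 1.70 ± 0.34 (limma adjusted p = 0.0705, edgeR adjusted p = 0.0296), although each basal value lay on the spacing of 1 read of the other basal library and not of its own, so which basal library each belongs to is uncertain. Glutamine synthetase, Glul, was at 6701 and 4677 in basal and at 8965 and 6513 in luminal cells and passed neither test. Gpt was lower in luminal cells in value, with -1.91 ± 0.69, and Asrgl1 higher, with 1.08 ± 0.63, and neither passed limma or edgeR.

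In the arginine and polyamine list, 2 of 13 kept genes were at least 2-fold higher in basal (15.4%) and 5 in luminal cells (38.5%), with a median of -0.46. Odc1, the rate-limiting enzyme of polyamine synthesis, was at 4904 and 9822 normalized counts in basal and 542 and 1433 in luminal cells, with a log2 fold change of -2.98 ± 0.56 (limma adjusted p = 0.0703, edgeR adjusted p = 0.00359). Azin1, which protects ornithine decarboxylase from its antizyme, had the opposite order, with 5048 and 6860 in basal and 15800 and 19913 in luminal cells, which gave a log2 change of 1.59 ± 0.27 (limma adjusted p = 0.0671, edgeR adjusted p = 0.0110). Spermidine synthase Srm and argininosuccinate lyase Asl had log2 fold changes of 1.13 ± 0.48 and 1.30 ± 0.48 and passed neither test.

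Amino acid sensing by mTORC1 was represented by 27 genes, all kept, with 3 (11.1%) at least 2-fold higher in each cell type, a share below the background, and a median of -0.23. Depdc5, a subunit of the GATOR1 complex that restrains mTORC1, was at 545 and 429 normalized counts in basal and 2188 and 2150 in luminal cells, and passed limma with 2.16 ± 0.27 (adjusted p = 0.0497). The arginine sensor Castor1 and the mTORC1 subunit Mlst8 had log2 fold changes of -2.34 ± 0.92 and -2.10 ± 0.98, and the sestrin Sesn3, at 8755 and 4703 against 2691 and 3085, had -1.15 ± 0.34 (edgeR adjusted p = 0.0620), and none of these passed. Among amino acid and peptide carriers outside the family, 15 of 20 genes were kept, 4 were at least 2-fold higher in basal (26.7%) and 2 in luminal cells (13.3%), the median was 0.28, and no gene passed limma or edgeR. The mitochondrial aspartate-glutamate carrier Slc25a13 was at 282 and 416 in basal and at 0 and 93 in luminal cells, and the peptide carrier Slc15a2 was at 0 and 39 in basal and at 39 and 436 in luminal cells.

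**Figure D5:**
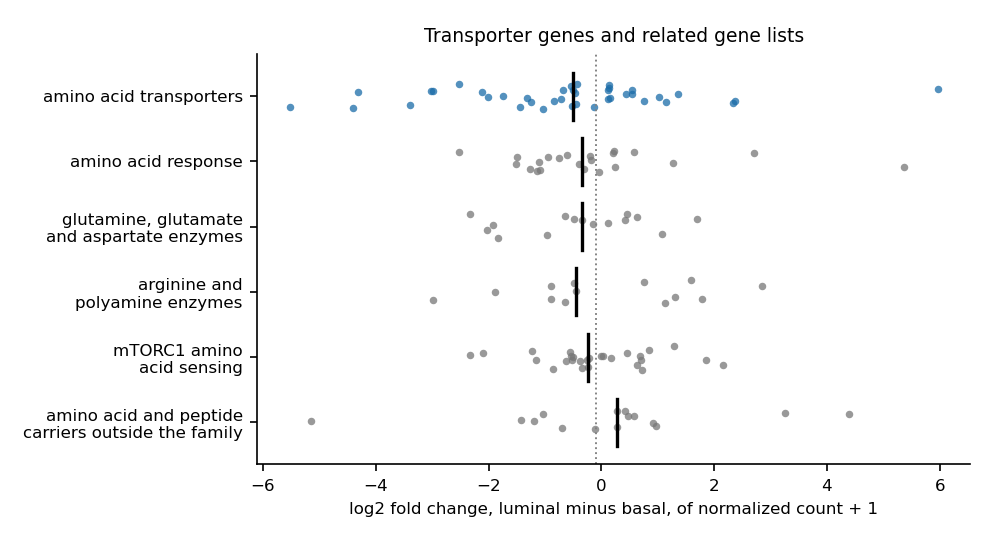
Points give the log2 fold change, luminal minus basal, of each gene kept, for the transporters in blue and the 5 related lists in grey, spread vertically at random, with a black bar at each median and a dotted line at -0.10, the median of all genes kept. The medians run from -0.50 for the transporters to 0.28 for carriers outside the family, and genes of every list lie on both sides of 0.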

How the data were processed

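Total RNA libraries (NuGEN Ovation Solo) of basal and luminal cells, 2 per group, were sequenced by the authors, mapped with STAR to GRCm38 (mm10) and counted with HTSeq on the Ensembl annotation. The submitters' processing notes also name Picard. The authors scaled each library's counts to the same total of aligned reads and deposited them as a signal per gene, rounded to whole numbers. Removal of duplicates and counting by strand are not given in the sources used here. Every column was mapped to a sample by its name.

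Values of up to 60 reads were whole multiples of 1 number, the value of 1 read, within 0.5 for 97.9% to 99.0% of them. It was 6.26 and 6.50 in basal replicates 1 and 3 and 19.4 and 31.2 in luminal replicates 3 and 2. Division by it gave whole reads, which are less certain in luminal replicate 2, whose spacing did not hold for all genes, and for 556 genes with a value off the spacing. In these genes 94.4% of the basal replicate 1 values of up to 60 reads lay on the spacing of basal replicate 3, and 85% of those of luminal replicate 3 on that of luminal replicate 2, against 42.2% and 0% in the other genes, so a value there may belong to another library. Slc3a1 is the only member among them, with Gpt2, Mthfd2, Slc25a18 and Des of the lists, and values of the other 63 members lay on their own library's spacing up to 500 reads. Symbols, coordinates and exon lengths came from GENCODE M21, which held 49412 of the gene identifiers.

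A gene passed the fold threshold where the group averages differed 2-fold or more. Differences of log2(value + 1) were tested with limma 3.58.1 under a trended prior, and p-values were adjusted over all 18737 genes kept by the Benjamini-Hochberg method. Such fold changes depend on the pseudocount in low genes. With a value of 0 in a library they can exceed the log2 ratio of averages, as for Slc6a4 (-5.52 against -4.15). For Slc6a17 the sign differed (-2.02 against 0.74). A pseudocount of 10 gave -3.74 for Slc6a4. edgeR 4.0.16 (quasi-likelihood, TMM) and DESeq2 1.42.0 on recovered reads were alternatives and called 950 and 819 genes. Others changed the filter, pseudocount, scaling, depth and threshold or left out a library. Ratios for genes with 1 to 3 reads in a group used pooled reads with exact binomial intervals. The steps were tested on simulated data. Scripts ran in R 4.3.3 and in Python with matplotlib 3.10.9, scipy 1.17.1, pandas 2.3.3 and numpy 2.4.6.

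The members, lists and tests were chosen with earlier results of these data known. Members are named with values if their average was 100 or more and they passed the fold threshold or limma, if they lead their group per exon length, or if they are Slc3a2, Slc7a5, Slc7a11, Slc1a5, Slc38a2, Slc7a1 or Slc38a9. In each list, up to 4 genes past the fold threshold and at that average are named, by size of fold change. Others were chosen after their values were seen, as were the values of markers. A few genes of the family and lists are not reported here.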

Additional observations from a re-analysis of the deposited data

How the results depend on the processing

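No paired analysis was possible because the groups share fewer than 2 replicate numbers. Both fold counts and the median kept their values within 1.5 times, or within the spread of 0.20 between library pairs, under median-ratio scaling, quantile normalization, thinning to equal depth and removal of genes off the spacing. The count higher in basal cells was 8 where both groups had to pass the filter and 22 with no filter, which tests more genes, and at a threshold of 4 the counts were 7 in basal and 3 in luminal cells. The median was -0.20 with scaling to nuclear protein-coding genes and -0.14 with bounds. Leaving out 1 library gave 10 to 16 members in basal cells, 4 to 9 in luminal cells and medians of -0.59 to -0.45.

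Counts of calls are given as higher in luminal and higher in basal cells, with those over all genes in parentheses. Limma called 0 and 0 members (48 and 82 genes) with all genes kept, 1 and 3 (217 and 315) with a filter at an average of 100 and 1 and 3 (269 and 409) with a filter in both groups. A pseudocount of 10 gave 1 and 1 (212 and 319), thinning 1 and 0 (798 and 530), and quantile normalization 0 and 1 (369 and 499). Without basal replicate 1 or 3 it was 0 and 1 (6 and 445 each time), the 1 being Slc6a20a, and without luminal replicate 2 or 3 it was 0 and 0 (220 and 11, and 220 and 7). edgeR gave 3 and 4 (444 and 506) and DESeq2 3 and 3 (403 and 416). Chosen after seeing the data, edgeR without genes off the spacing gave 4 and 5 (441 and 511), and edgeR gave 3 and 2 (445 and 461) without basal replicate 1, 2 and 4 (579 and 540) without basal replicate 3, 4 and 4 (407 and 612) without luminal replicate 2, and 0 and 1 (117 and 164) without luminal replicate 3. In the limma and edgeR fits that leave out 1 library, the lone library is assumed to vary like the other group. Slc6a20a was at 0 in both luminal libraries, so its limma call without a basal library rests on a luminal pair with no spread. Calls over all genes thus moved with the settings as well, and the cause was not tested.

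Fold changes that reversed belonged to members that passed no test. On leaving out 1 library, Slc7a11 ranged from -0.43 to 0.67, Slc36a1 from -0.46 to 0.73, Slc38a9 from -0.66 to 0.38, Slc43a3 from -0.35 to 1.85 and Slc7a6os from -0.094 to 0.31. Slc38a9 was at 0.17 with scaling to nuclear protein-coding genes, and thinning gave 0.49 for Slc38a7 and -0.28 for Slc7a6os. Depth limits members with few luminal reads, since 1 read is worth 19.4 or 31.2 normalized counts there.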
